A study of Mus musculus with 6 samples.

Results

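The tricarboxylic acid (TCA) cycle enzymes described here are 9 nuclear genes, Cs, Idh3a, Idh3b, Idh3g, Ogdh, Sucla2, Suclg1, Fh1 and Mdh2, chosen by gene symbol from the 45777 genes of the deposited table. All 9 were in the table and all 9 passed the filter on low counts, which left 17820 genes for testing. Their mRNA was sequenced from epididymal white fat, a visceral depot of male mice, in C57BL/6 animals after 24 h without food. There were 6 libraries. The 3 WT-labelled libraries came from mice with loxP-flanked Pak4 alleles (Pak4 flox/flox), and the 3 KO-labelled ones from Pak4 flox/flox mice with Adipoq-Cre, a transgene that drives Cre recombinase from the adiponectin promoter in adipocytes. Fasting, strain and the floxed alleles were thus shared by both groups. The WT group lacked Cre, so effects of Cre itself and of Pak4 deletion cannot be told apart. The labels do not say whether the numbered libraries of a group are different animals, so the p-values cover only the spread among these libraries, which may be technical. Their cell type entry reads adipocytes, although RNA was taken from the whole fat pad.

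The TCA cycle runs in the mitochondrial matrix. Acetyl-CoA joins oxaloacetate to form citrate, and a series of oxidations returns oxaloacetate while passing electrons to the respiratory chain. In adipose tissue the cycle also supplies citrate, which leaves the mitochondrion as the carbon source of fatty acid synthesis, and oxaloacetate for glyceroneogenesis, which provides the glycerol backbone to re-esterify fatty acids during fasting.

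Library totals ran from 62854465 to 72005658 counts, so each member had between 6530 and 27996 counts per library and a counting error of at most 1.24% (1 SD). Such an error covers counting only, since PCR copies of a molecule are counted as separate reads. Pak4, the targeted gene, went against the labels: it had 339, 337 and 358 counts in the WT-labelled libraries 1, 2 and 3 and 815, 744 and 675 in the KO-labelled ones 1, 2 and 3. Gene-level counts do not tell whether the labels are exchanged or whether KO-labelled animals keep Pak4 transcript outside deleted exons, and neither was tested. Directions below are therefore given by label, and an exchange of labels would turn every one of them. On the first principal component, KO 1 (-1.85) fell between the WT-labelled libraries (-53.5 to -12.3) and KO 2 and KO 3 (40.9 and 53.5). Adipocyte markers were abundant, with the summed level of 12 at 66081 to 72728 CPM (counts per 1000000 counts of a library, TMM-scaled) in the WT-labelled libraries and 70799 to 73739 CPM in the KO-labelled ones. Of these 12, 2 (Cfd and Pparg) were higher in every KO-labelled library and 1 (Pnpla2) was lower, beside 13.7% and 12.5% of all tested genes. Some markers of other cells moved with the labels. The sum of 8 endothelial markers was 210 to 285 CPM (WT) and 163 to 179 CPM (KO), and that of 6 brown and beige adipocyte markers 12.4 to 16.0 and 3.90 to 9.13 CPM. Those of 6 progenitor and fibroblast markers (2218 to 2412 and 2422 to 3768 CPM) and 5 B and plasma cell markers (8.48 to 19.4 and 23.5 to 36.3 CPM) were also apart, but overlapped once the most abundant gene, Dcn or Jchain, was left out (808 to 853 and 732 to 891 CPM, and 4.49 to 14.8 and 12.7 to 16.4 CPM). Sums of 10 macrophage markers (1541 to 1884 and 1553 to 2264 CPM) and 6 mesothelial markers (468 to 760 and 739 to 920 CPM) overlapped. Yet all 10 and all 6 had log2 fold changes of KO over WT labels above 0, beside 52.1% of all tested genes. Their medians were 0.31 and 0.53. Sums of T and NK cell and of erythroid markers overlapped too. Without Hbb-bs, the most abundant erythroid gene, the other 3 were apart, at 1059 to 1249 and 753 to 992 CPM. Ucp1, the uncoupling protein of brown fat, reached at most 0.375 CPM. Of 8 epididymal and sperm markers, Defb30 and Lcn5 had no count and the sum was at most 0.925 CPM. In bulk tissue, fewer cells of a type and less RNA per cell cannot be told apart, and the part of these markers in the results below was not tested.

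None of the 9 genes passed the threshold of 0.05 on Benjamini-Hochberg adjusted p from the edgeR quasi-likelihood test over all genes, a threshold that 0.0168% of all tested genes passed, all of them lower in the KO-labelled libraries. Their values nevertheless lay on one side. All 9 log2 fold changes of KO over WT labels were below 0, from -0.51 for Ogdh to -0.07 for Idh3g, with a median of -0.16, beside a median of 0.02 over all tested genes, of which 47.9% were below 0. In 7 of the 9 (Cs, Idh3a, Ogdh, Sucla2, Suclg1, Fh1 and Mdh2) every KO-labelled library was lower in CPM than every WT-labelled library, which was so for 12.5% of all tested genes. At an unadjusted p under 0.05 there were 3 members (Ogdh, Fh1 and Mdh2), all lower, beside 9.71% of all genes. DESeq2 called 1 member, Ogdh, where it called 4.27% of all genes lower, and limma voom called 0, where it called 0.0224% lower. The summed level of the 9 genes was 1997, 2023 and 2025 CPM in the WT-labelled libraries 1, 2 and 3 and 1740, 1706 and 1704 CPM in the KO-labelled ones. Ogdh made up part of this difference, with means of 392 and 274 CPM. The TMM factors behind these values were themselves apart, at 0.972, 0.931 and 0.976 (WT) and 1.01, 1.07 and 1.05 (KO). In the deposited TPM the sums lay nearer together, at 1826, 1775 and 1936 (WT) and 1653, 1712 and 1682 (KO). With library size as the only scaling, the median over all tested genes came to 0.13, with 33.0% of them below 0. That scaling left 8 of 9 members below 0 with a median of -0.05, Idh3b, Sucla2 and Suclg1 at only -0.01 each, and Idh3g at 0.05. In the deposited TPM, the groups did not overlap for 4 members (Ogdh, Suclg1, Fh1 and Mdh2), beside 8.54% of all tested genes with lower TPM in all KO-labelled libraries.

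**Figure D1:**
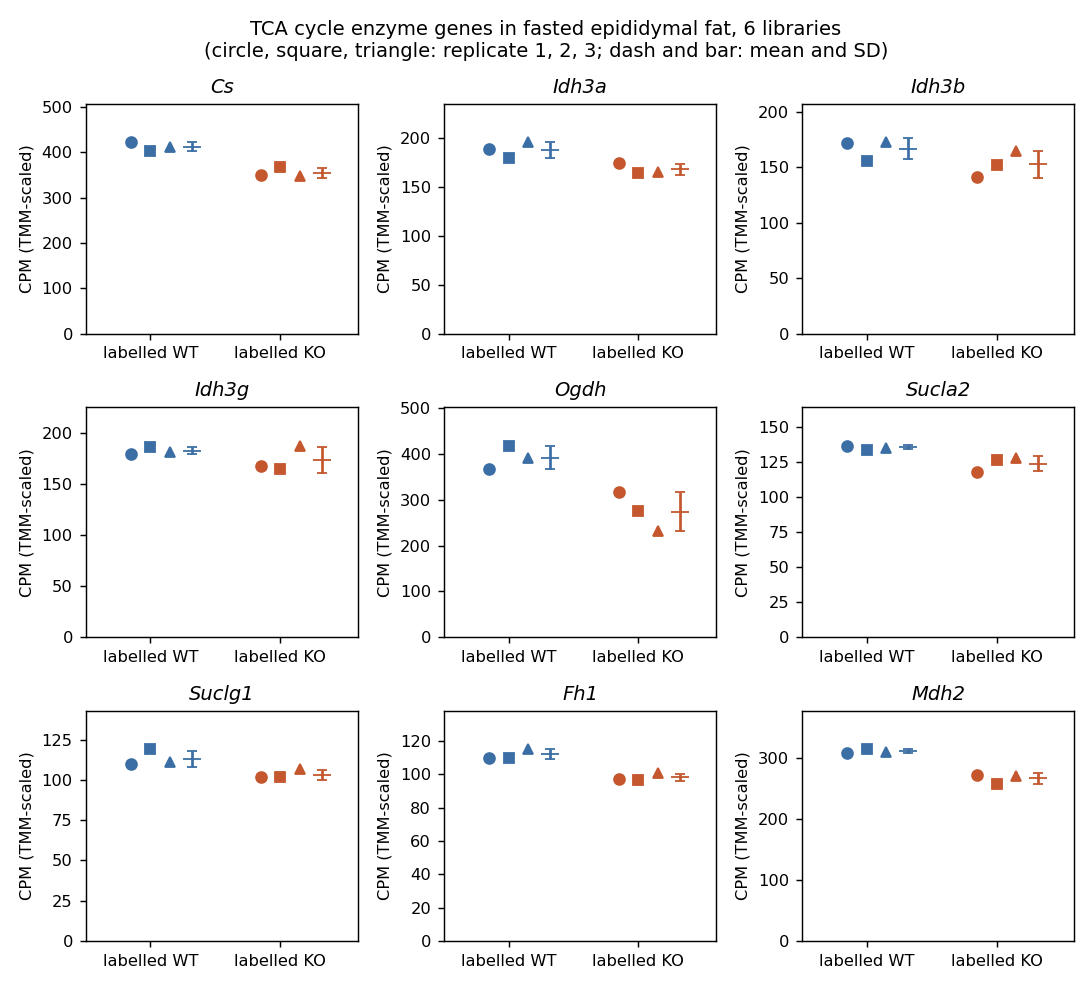
TMM-scaled CPM (vertical axis from 0) of each of the 9 genes in the 3 WT-labelled libraries (blue) and the 3 labelled KO (orange), with circle, square and triangle for replicates 1, 2 and 3 and the mean and SD beside them. The groups do not overlap for 7 genes and overlap for Idh3b and Idh3g, and Ogdh shows the widest gap.

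Citrate synthase, the product of Cs, condenses acetyl-CoA with oxaloacetate and commits carbon to the cycle. Cs (chromosome 10, 128337727 to 128362482 in mm10) had 423, 404 and 413 CPM in the WT-labelled libraries 1, 2 and 3 and 350, 367 and 348 CPM in the KO-labelled ones 1, 2 and 3. In CPM every KO-labelled library was below every WT-labelled library, while the groups overlapped in the deposited TPM. The means were 413 ± 9.82 and 355 ± 10.4 CPM (SD, n = 3), a log2 fold change of -0.22 ± 0.10 (SE), that is -14.2% with a 95% interval of -26.6% to 0.304% (adjusted p 0.263 in edgeR). Csl, a citrate synthase-like gene, had between 0 and 2 counts.

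NAD-dependent isocitrate dehydrogenase makes 2-oxoglutarate and NADH and is a regulated step of the cycle. Idh3a encodes its catalytic alpha subunit, and Idh3b and Idh3g encode the beta and gamma subunits. Idh3a (chromosome 9, 54586511 to 54604662) had 189, 180 and 196 CPM in the WT-labelled libraries and 175, 164 and 165 CPM in the KO-labelled ones. The groups did not overlap in CPM, at 188 ± 7.92 and 168 ± 5.77 CPM, but did in the deposited TPM. The log2 fold change of Idh3a was -0.16 ± 0.09 (edgeR adjusted p 0.335), or -10.8% with a 95% interval of -22.6% to 2.90%. Idh3b (chromosome 2, 130279309 to 130284451) had 172, 156 and 173 CPM in the WT-labelled libraries and 141, 152 and 165 CPM in the KO-labelled ones. These groups overlapped, with KO 3 above WT 2. The difference for Idh3b was -8.51% with a 95% interval of -22.0% to 7.39%. Idh3g (chromosome X, 73778963 to 73786897) had 180, 187 and 182 CPM in the WT-labelled libraries and 168, 165 and 188 CPM in the KO-labelled ones. Here KO 3 was the highest of all 6 libraries. The difference for Idh3g was -4.95% with a 95% interval of -18.3% to 10.6%, and its direction turned under scaling by library size alone. All 3 subunits thus had intervals that span 0, and small differences in either direction are not resolved. Idh2, the mitochondrial NADP-dependent enzyme that makes the same product, stood at 134 ± 7.06 and 130 ± 16.3 CPM (-0.04 ± 0.11).

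The 2-oxoglutarate dehydrogenase complex converts 2-oxoglutarate to succinyl-CoA and is built from E1 (Ogdh), E2 (Dlst) and E3 (Dld), the last shared with pyruvate dehydrogenase and branched-chain keto acid dehydrogenase. Ogdh (chromosome 11, 6291597 to 6359094) had 367, 418 and 391 CPM in the WT-labelled libraries 1, 2 and 3 and 317, 275 and 232 CPM in the KO-labelled ones 1, 2 and 3. The groups did not overlap, and KO 1 was the closest to the WT-labelled libraries. The means were 392 ± 25.5 and 274 ± 42.5 CPM, a log2 fold change of -0.51 ± 0.14, or -30.0% with a 95% interval of -43.9% to -12.7%. With an unadjusted p of 0.00605 it ranked 695 among all tested genes, and 9.29% of them had a log2 fold change at or below its own. The adjusted p was 0.155 in edgeR, while DESeq2 (-0.52, adjusted p 0.0134) put it past the threshold, as did edgeR when KO 1 was left out (-0.63, adjusted p 0.0417), a fit that called 3.49% of all genes lower. Over all alternatives the adjusted p of Ogdh ran from 0.0134 to 0.423. The deposited TPM of Ogdh, 131, 157 and 165 against 121, 111 and 93.0, kept the groups apart. Its length per read count was less steady than that of the other members. The length implied by counts and FPKM ranged over 13.7% between libraries for Ogdh (5133 to 5838 bases). For the other 8 it ranged over 2.56% to 2.75%. TPM and CPM ordered WT 2 and WT 3 differently for Ogdh. This was not particular to Ogdh, since Mdh2 (315 and 311 CPM, 432 and 461 TPM) and Idh3g (187 and 182 CPM, 247 and 260 TPM) did the same.

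Its partners in the complex stood nearer to 0. Dlst had 191, 174 and 193 CPM in the WT-labelled libraries and 169, 152 and 155 CPM in the KO-labelled ones (log2 fold change -0.23 ± 0.10, edgeR adjusted p 0.246). Dld had 198 ± 2.78 and 180 ± 17.5 CPM (-0.14 ± 0.10), with KO 3, at 198 CPM, inside the range of the WT-labelled libraries. The related E1 genes were rare: Ogdhl stood at 2.99 ± 0.142 and 1.89 ± 0.732 CPM (-0.66 ± 0.28, adjusted p 0.254) and Dhtkd1, whose product acts on 2-oxoadipate, at 14.4 ± 0.649 and 15.8 ± 1.95 CPM. Acta1, a muscle actin, was highest in WT 2 and WT 3 and lowest in KO 2 and KO 3, as Ogdh was, with 79.6, 582 and 257 CPM in the WT-labelled libraries and 151, 7.81 and 13.9 CPM in the KO-labelled ones. The 7 other skeletal muscle markers listed summed to only 2.72 to 7.64 CPM, most of it Actn3 (1.6 to 2.76 CPM in the WT-labelled libraries and 3.61 to 6.47 CPM in the KO-labelled ones). Without Actn3 the sums overlapped, at 0.539 to 1.12 and 0.624 to 1.64 CPM. The part of either in the Ogdh difference was not tested.

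Promoter sequence is shown for 3 members: Ogdh for its difference between labels, and Mdh2 and Sucla2 as the members with the highest and lowest level per length. Each is the 250 bases before the RefSeq transcript start in GRCm38.p6, written 5′ to 3′ on the gene's strand, which is + for all 3, with motif matches in capitals. Ogdh lies at chr11:6291347-6291596 (the first of 6 starts in the table, overlapped by the lncRNA gene Gm46270), Mdh2 at chr5:135778399-135778648 (its first bases overlap Styxl1) and Sucla2 at chr14:73552536-73552785.
Ogdh: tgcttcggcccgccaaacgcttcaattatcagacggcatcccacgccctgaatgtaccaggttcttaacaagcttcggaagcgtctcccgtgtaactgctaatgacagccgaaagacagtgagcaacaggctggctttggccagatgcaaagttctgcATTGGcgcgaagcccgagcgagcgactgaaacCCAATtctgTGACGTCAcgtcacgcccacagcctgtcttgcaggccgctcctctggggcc
Mdh2: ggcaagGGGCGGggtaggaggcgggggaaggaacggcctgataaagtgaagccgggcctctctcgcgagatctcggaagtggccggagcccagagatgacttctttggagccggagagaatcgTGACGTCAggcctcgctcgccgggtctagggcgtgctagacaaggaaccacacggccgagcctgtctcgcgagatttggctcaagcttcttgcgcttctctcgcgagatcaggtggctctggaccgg
Sucla2: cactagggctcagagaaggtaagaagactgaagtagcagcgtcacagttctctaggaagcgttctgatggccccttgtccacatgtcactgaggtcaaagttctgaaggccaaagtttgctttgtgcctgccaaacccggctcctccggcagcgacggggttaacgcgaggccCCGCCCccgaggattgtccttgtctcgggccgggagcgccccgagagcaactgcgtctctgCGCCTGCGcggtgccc
Capitals mark the cAMP response element TGACGTCA, the CCAAT box CCAAT, the SP/KLF box GGGCGG and the NRF1 core CGCANGCG, each sought on both strands. Windows were found for 8 of the 9 members. The cAMP response element occurred in those of Ogdh and Mdh2, 51 to 44 and 127 to 120 bases before the start, and in 1.55% of 32851 windows of this length. The NRF1 core occurred in Sucla2, 16 to 9 bases before the start, and in Idh3g, against 6.76% of all windows. The CCAAT box was in 4 of 8 (Cs, Fh1, Idh3b and Ogdh) and 33.8% of all, and the SP/KLF box in 4 of 8 (Cs, Fh1, Mdh2 and Sucla2) and 32.7% of all. The ETS motif CCGGAAG occurred in Idh3g, against 6.91% of all, and the estrogen-related receptor motif TCAAGGTCA in 0 of 8, against 0.387% of all. The shares over all windows take no account of base composition. The GC content had a median of 52.4% over all windows. Among the members it ran from 46.8% for Idh3b to 63.2% for Mdh2, with Ogdh at 57.2%. A match describes these letters in this window and is not evidence of binding.

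Succinyl-CoA ligase releases CoA and makes a nucleoside triphosphate. Suclg1 encodes the alpha subunit common to both forms, Sucla2 the beta subunit of the ADP-using form and Suclg2 that of the GDP-using form. Sucla2 (chromosome 14, 73552786 to 73596144) had 137, 134 and 135 CPM in the WT-labelled libraries and 118, 127 and 128 CPM in the KO-labelled ones. Suclg1 (chromosome 6, 73248505 to 73276907) had 110, 119 and 111 CPM in the WT-labelled libraries and 102, 102 and 107 CPM in the KO-labelled ones. In CPM both genes were lower in every KO-labelled library, by small amounts. In the deposited TPM the groups overlapped for Sucla2. The difference was -8.30% for Sucla2 (95% interval -19.7% to 4.72%) and -8.75% for Suclg1 (-20.1% to 4.19%), with adjusted p of 0.425 and 0.400 in edgeR. Suclg2 lay on the other side of 0, at 80.5, 64.2 and 72.1 CPM and 72.2, 80.9 and 95.2 CPM, with overlapping groups (0.20 ± 0.13, adjusted p 0.428).

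Succinate dehydrogenase, the respiratory complex that oxidises succinate to fumarate, had mixed subunits. Sdha, the flavoprotein, stood at 481 ± 20.8 and 476 ± 7.88 CPM (-0.02 ± 0.10) and Sdhb, the iron-sulfur subunit, at 161 ± 17.3 and 170 ± 21.1 CPM (0.07 ± 0.13). Of the membrane anchors, Sdhc had 156, 145 and 142 CPM in the WT-labelled libraries and 128, 114 and 94.6 CPM in the KO-labelled ones (-0.40 ± 0.12, adjusted p 0.175 in edgeR), and Sdhd stood at 142 ± 7.07 and 137 ± 10.7 CPM. Of the 4 subunits, Sdhc was therefore the one whose groups did not overlap.

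Fumarase, the product of Fh1, hydrates fumarate to malate, and malate dehydrogenase 2, the product of Mdh2, oxidises malate to oxaloacetate and closes the cycle. Fh1 (chromosome 1, 175601378 to 175625635) had 110, 110 and 115 CPM in the WT-labelled libraries and 97.1, 96.7 and 101 CPM in the KO-labelled ones. Mdh2 (chromosome 5, 135778649 to 135790386) had 309, 315 and 311 CPM in the WT-labelled libraries and 273, 257 and 271 CPM in the KO-labelled ones. In both genes the replicates were close together and the groups apart. The difference was -12.1% for Fh1 (95% interval -22.6% to -0.271%) and -14.3% for Mdh2 (-26.1% to -0.564%), with adjusted p of 0.251 and 0.245 in edgeR. The cytosolic malate dehydrogenase gene Mdh1 stood at 446 ± 28.6 and 422 ± 37.2 CPM (-0.08 ± 0.12), with overlapping groups.

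Replicate libraries of one label agreed closely for most members. The coefficient of variation within groups was 2.40% for Mdh2, 2.43% for Fh1 and 2.68% for Cs, with a median of 3.75% over the 9, beside 10.4% over 1688 tested genes with a mean of at least 100 CPM. Ogdh, at 11.9%, varied the most of the 9, followed by Idh3b at 6.83%. For Ogdh it was 15.5% among the KO-labelled libraries and 6.52% among the WT-labelled ones. The edgeR fit draws each gene's dispersion towards that of genes of like abundance.

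**Figure D2:**
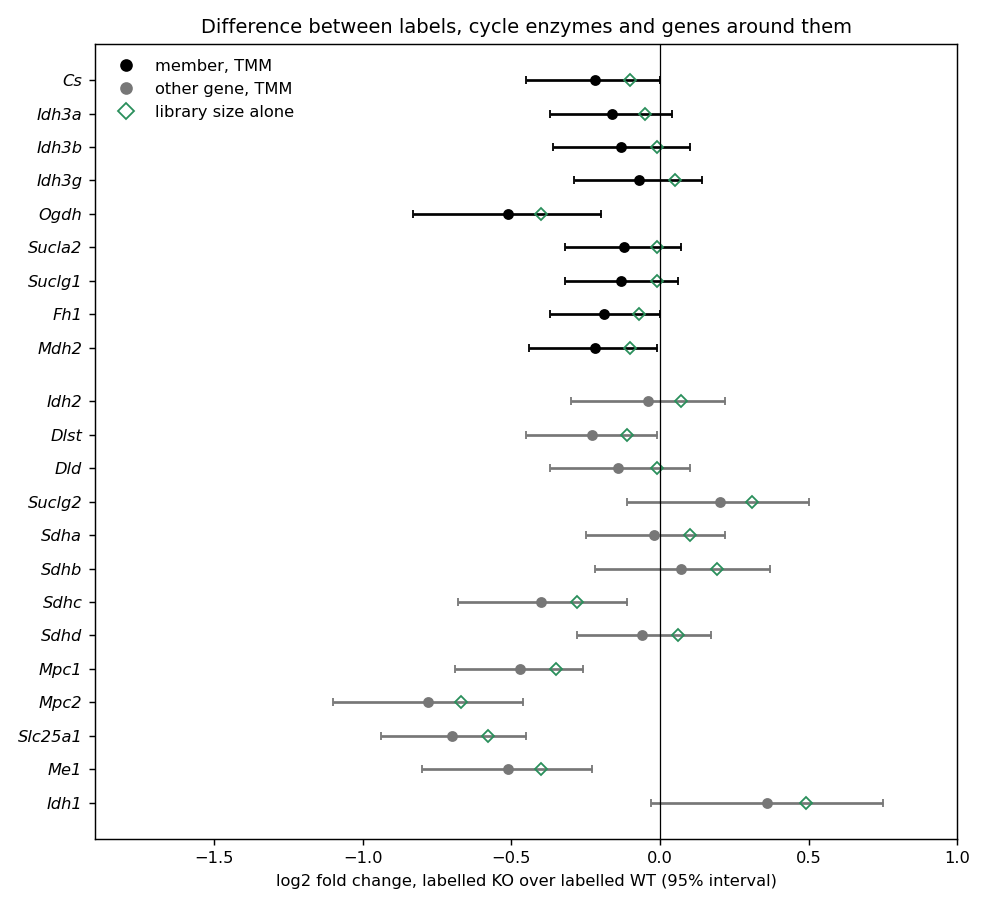
Log2 fold change of KO-labelled libraries over WT-labelled libraries with its 95% interval from edgeR (horizontal axis) for the 9 members (black) and 13 genes around the cycle (grey), with open diamonds for the value scaled by library size alone. All 9 members lie left of 0 with TMM scaling, Idh3g crosses to 0.05 with library size alone, and Mpc2 and Slc25a1 lie further left than any member.

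Per transcript length, in the authors' deposited TPM, the 9 genes ran from a mean of 115 to 421 and all were abundant: between 93.8% and 98.3% of tested genes had a lower mean TPM. Mdh2 was the highest at 421 ± 27.9 TPM (SD over 6 libraries) and stood above every other member in all 6 libraries. Idh3g (251 ± 10.3) and Cs (245 ± 19.1) followed, each above the other in 3 libraries, so their order is not resolved. Idh3b came next at 198 ± 16.0 TPM, below Cs and above Suclg1 in 6 of 6 libraries. Suclg1 (145 ± 5.11), Idh3a (138 ± 9.66), Ogdh (130 ± 27.5), Fh1 (120 ± 7.81) and Sucla2 (115 ± 6.11) formed a lower tier in which the ranges of neighbours overlapped. Ogdh moved most within it, from 165 TPM in WT 3 to 93.0 TPM in KO 3.

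**Figure D3:**
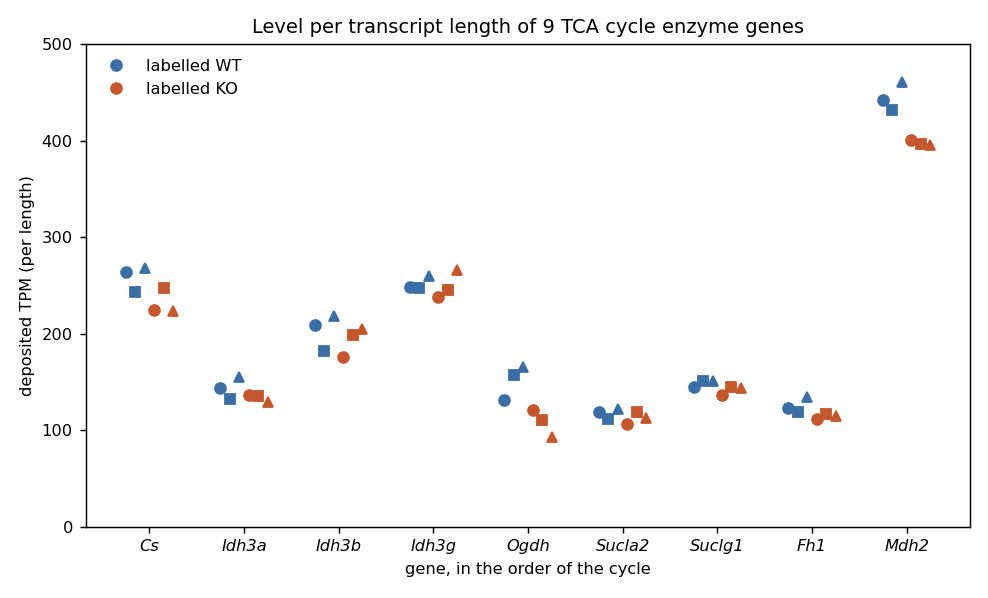
Deposited TPM (vertical axis) of the 9 genes in the order of the cycle, with WT-labelled libraries in blue, the KO-labelled ones in orange, and circle, square and triangle for replicates 1, 2 and 3. Mdh2 lies between 395 and 461 TPM, above all other members in each library, and Ogdh spreads from 93.0 to 165 TPM.

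Ratios between genes within a library do not depend on scaling between libraries. Messages of the isocitrate dehydrogenase subunits were not equal, with Idh3b at 1.43 ± 0.103 and Idh3g at 1.82 ± 0.141 times Idh3a in TPM (SD over 6 libraries). Both ratios overlapped between labels. Sucla2 was 0.793 ± 0.0321 times Suclg1, a ratio that differed by 0.01 on the log2 scale between labels. Sucla2 was 2.77, 3.38 and 3.04 times Suclg2 in the WT-labelled libraries and 2.66, 2.42 and 2.17 times in the KO-labelled ones. This was the only one of 11 ratios in TPM whose groups did not overlap (log2 difference -0.34, exact permutation p 0.1, two-sided, the smallest that 3 against 3 libraries allow). Ogdh was 1.03, 1.42 and 1.24 times Dlst in the WT-labelled libraries and 1.05, 1.02 and 0.887 times in the KO-labelled ones, which overlapped in TPM (exact permutation p 0.2) and did not overlap in the ratio of counts (exact permutation p 0.1). Ogdh relative to Cs also overlapped (log2 difference -0.32, exact permutation p 0.2), so a difference of Ogdh beyond that of Cs was not shown. Mdh2 relative to Cs was 1.72 ± 0.0542 and 1.72 ± 0.101. Adjusted over the 11 ratios, the exact permutation p ranged from 0.44 to 0.9.

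**Figure D4:**
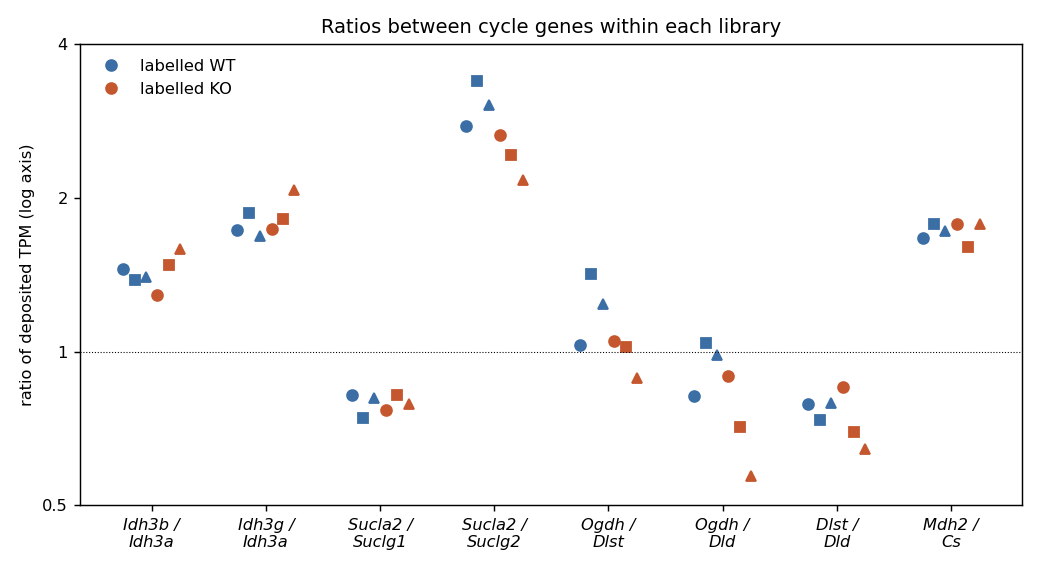
Ratio of deposited TPM of gene pairs within each library (log axis), with WT-labelled libraries in blue, the KO-labelled ones in orange, and circle, square and triangle for replicates 1, 2 and 3. Sucla2 over Suclg2 separates the labels (2.77 to 3.38 against 2.17 to 2.66), while the other ratios overlap.

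Some genes that feed the cycle had log2 fold changes further from 0 than those of the members, though 0 of them passed in edgeR with all 6 libraries. Among 13 genes of the pyruvate dehydrogenase complex, its regulators and the mitochondrial pyruvate carrier (median -0.02, and -0.10 without KO 3), 6 were lower and 2 higher at an unadjusted p under 0.05, beside 9.71% and 9.66% of all genes. Mpc1 and Mpc2, the subunits of the carrier that admits pyruvate to the matrix, were among the lower. Mpc2 had 147, 134 and 147 CPM in the WT-labelled libraries and 101, 76.5 and 72.3 CPM in the KO-labelled ones (-0.78 ± 0.14, adjusted p 0.117 in edgeR), and Mpc1 stood at 240 ± 9.19 and 173 ± 7.91 CPM (-0.47 ± 0.09, adjusted p 0.120). Pdk4, a kinase that switches pyruvate dehydrogenase off, stood at -1.88 ± 0.40 and varied widely among the WT-labelled libraries, from 298 to 843 CPM. Dlat, the E2 subunit of pyruvate dehydrogenase, stood at -0.34 ± 0.08. The 2 higher genes, named after their values were seen, were the phosphatase genes Pdp1 (0.36 ± 0.14) and Pdp2 (0.48 ± 0.17).

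For 19 genes of the entry and exit of cycle intermediates, the median was -0.15 (but -0.05 without WT 1 and -0.08 without WT 2). At an unadjusted p under 0.05, 4 of the 19 were lower and 3 higher, beside 9.71% and 9.66% of all genes. Slc25a1, which exports citrate, had 230, 204 and 245 CPM in the WT-labelled libraries and 143, 145 and 130 CPM in the KO-labelled ones (-0.70 ± 0.11, adjusted p 0.0898 in edgeR). Pcx, which makes oxaloacetate from pyruvate, stood at 1463 ± 89.8 and 1120 ± 43.1 CPM (-0.39 ± 0.12). In 5 of the 19 every KO-labelled library was lower in CPM than every WT-labelled one, beside 12.5% of all tested genes. In 3 of the 19 every KO-labelled library was higher, near the share of 13.7% among all tested genes. These 3 were Me3, a mitochondrial malic enzyme (0.78 ± 0.18, at 3.33 ± 0.51 and 5.71 ± 0.904 CPM), Pck2, the mitochondrial phosphoenolpyruvate carboxykinase (0.35 ± 0.11), and Slc25a12, an aspartate-glutamate carrier (0.39 ± 0.14, chosen after its values were seen). Among 5 cytosolic counterparts (median -0.08), 1 was lower at an unadjusted p under 0.05, beside 9.71% of all genes. That was Me1, the cytosolic malic enzyme, at 404 ± 9.86 and 283 ± 36.3 CPM (-0.51 ± 0.12). Its counts are uncertain, since the pseudogene Gm7049 matches it at 98.5% identity over 1638 bases. Idh1 (0.36 ± 0.17) and Aco1 (0.21 ± 0.13), the cytosolic isocitrate dehydrogenase and aconitase, lay above 0 with overlapping groups.

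Of 13 regulators of mitochondrial genes, 9 were above 0, beside 52.1% of all tested genes. Their median of 0.13 came to 0.01 without WT 2 and 0.06 without KO 3. A pair, Ppargc1b and Tfam, were higher at an unadjusted p under 0.05, beside 9.66% of all genes. Ppargc1b, a coactivator of mitochondrial gene programmes, had 6.43, 5.31 and 7.42 CPM in the WT-labelled libraries and 11.8, 9.07 and 13.4 CPM in the KO-labelled ones (0.84 ± 0.18, adjusted p 0.134 in edgeR). Tfam, which packages and transcribes mitochondrial DNA, stood at 19.9 ± 0.102 and 23.5 ± 1.55 CPM (0.24 ± 0.09). Nrf1, a transcription factor of nuclear mitochondrial genes, stood at 0.21 ± 0.09 and Tfb1m, a mitochondrial rRNA methyltransferase, at 0.30 ± 0.14. In 4 of the 13 (these and Ppargc1b) every KO-labelled library was higher, beside 13.7% of all tested genes. Another 4 of the 13 had log2 fold changes below 0, down to -0.84, and 0 were lower in every KO-labelled library. Among 16 genes of mitochondrial import, membranes and chaperones (median -0.02), 3 had an unadjusted p under 0.05, all lower, beside 9.71% of all genes. They were Vdac1, the outer membrane channel (-0.37 ± 0.09), Timm23, of the inner membrane translocase (-0.22 ± 0.09), and Immt, a cristae organiser (-0.20 ± 0.08). Tomm40, the outer membrane import pore, stood at -0.20 ± 0.17. Of 10 other subunits and enzymes of the cycle (median -0.05), 3 were lower at an unadjusted p under 0.05, Dlst, Sdhc and Ogdhl, and 0 were higher. The shares of all genes were 9.71% lower and 9.66% higher. Of the 76 genes in these lists 0 passed in edgeR with all 6 libraries. Without KO 1, when edgeR called 3.49% of all genes lower and 2.08% higher, 8 of them passed: Mpc1, Mpc2, Slc25a1, Me1 and Vdac1 were lower and Me3, Slc25a12 and Idh1 higher. DESeq2, which called 7.16% of all genes, called Mpc1, Mpc2, Pdk4, Dlat, Slc25a1, Pcx, Me1, Me3, Ppargc1b and Vdac1 among those named here.

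Among 9179 genes outside all lists with a mean of at least 10 CPM, the 8 whose log2 CPM over the 6 libraries most resembled the mean standardised profile of the 9 members were Hmcn2 (Pearson r 0.993), Tacc1 (0.992), Fbxl5 (0.992), Acadl (0.991), Slc36a2 (0.989), Fam129b (0.989), Memo1 (0.988) and Decr1 (0.981). With 6 libraries in 2 groups, such values describe a likeness that any gene with a clean gap between the labels can reach. Acadl and Decr1 encode mitochondrial enzymes of fatty acid oxidation. Acadl had 276, 279 and 276 CPM in the WT-labelled libraries and 218, 216 and 225 CPM in the KO-labelled ones (-0.33 ± 0.09, adjusted p 0.155 in edgeR), and Decr1 stood at -0.25 ± 0.09. Within the members, Fh1 (r 0.98) and Mdh2 (0.95) followed the mean profile of the other 8 most closely and Idh3g (0.59) least.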

How the data were processed

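The authors deposited one table with read counts, FPKM and TPM per gene and library, per the file headers. The deposited counts are whole numbers without normalization and entered every test. The deposited FPKM (per kilobase of transcript and 1000000 fragments) served to derive implied lengths, and the deposited TPM to compare levels between genes. The submitters' processing notes name HISAT2 2.1.0, Bowtie2 2.3.4.1, StringTie 2.1.3b and build mm10 without roles. The sources used here do not give the strand setting or the treatment of reads with several matches. Counts of the overlapping lncRNA genes Gm46270 (Ogdh, 7 to 28 counts) and Gm38834 (Suclg1, 4 to 20 counts) cannot be separated from the members. Cs is overlapped by the lncRNA gene Gm51822 over 7682 bases and the snoRNA gene Gm23182 over 135 bases. Neither has counts here, so their part in the Cs counts cannot be checked. Nop56 (1294 to 2403 counts) overlaps Idh3b by 5 bases. Among GENCODE vM21 transcripts, no other gene matched a member at 95% identity over 200 bases.

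Libraries were grouped by title. Genes passing filterByExpr (minimum count 10, minimum total 15) received TMM scaling, and a robust quasi-likelihood model with the label as the only term was run in edgeR 4.0.16 under R 4.3.3. The test was two-sided with Benjamini-Hochberg adjustment over 17820 genes. The code was tested on simulated data. A standard error is the fold change divided by the root of F, and 95% intervals use the degrees of freedom of that test. Profile likeness used log2 CPM with a prior count of 2. Alternatives were RLE and library-size scaling, DESeq2 1.42.0, limma 3.58.1 voom, no filter, a replicate block and leaving out each library. Marker sums without their most abundant gene were added after seeing the data.

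Members and lists were chosen with earlier results of these data known. The rule names all members, the other cycle subunits, up to 4 genes per related list by smallest p where none passes, and 8 genes by profile. One gene of these lists is not reported here. Csl, Acta1, Gm7049 and genes overlapping a member were named after their values were seen. Coordinates and promoters are from RefSeq on GRCm38.p6, the assembly of mm10.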

Additional observations from a re-analysis of the deposited data

How the results depend on the processing

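The signs of 8 members were the same under all alternatives tried, but some values came close to 0. With library size alone, Idh3b, Sucla2 and Suclg1 stood at -0.01 each, and in the deposited FPKM at -0.01, -0.01 and -0.02. Idh3g turned to 0.05 with scaling by library size alone and to 0.04 in the deposited FPKM, an alternative chosen after seeing the data; the former has no composition correction. DESeq2 gave Ogdh -0.52 and called 1 member and 1152 genes in all, beside 0 members and 3 genes in edgeR; limma voom called 5 genes. With one library left out, the fold change ran from -0.63 to -0.41 for Ogdh, -0.25 to -0.20 for Cs, -0.24 to -0.20 for Mdh2 and -0.14 to -0.04 for Idh3g. The number of members called ran from 0 to 1 and of all genes from 1 to 1016, the highest values without the library KO 1; the cause was not tested. Member medians ran from -0.19 to -0.15, pyruvate genes from -0.10 to 0.04, entry and exit genes from -0.17 to -0.05 and regulators from 0.01 to 0.17. With library size alone these medians were -0.05, 0.10, -0.03 and 0.25, and those of other cycle subunits and import genes were 0.07 and 0.10. Same-numbered libraries did not visibly deviate together (correlations -0.17, -0.02 and 0.05). With 3 libraries per group these values cannot settle whether the numbers pair libraries. The replicate block called 1 gene in all and 0 members. Counting error was at most 1.24% per library, close to the spread among the WT-labelled libraries for Sucla2 (1.21%, with a counting error of 1.12%) and Mdh2 (0.918% and 0.747%).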
